A study of Mus musculus with 18 samples.

Results

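Kidney and tail fibroblasts were compared in how their transcriptomes changed after transplantation under the kidney capsule. The comparison used 12 of the 18 RNA-seq libraries of the study, chosen by their labels, in 4 groups of 3: transplanted kidney fibroblasts (KFs), kidney fibroblasts kept in culture (KFc), transplanted tail fibroblasts (TFs) and tail fibroblasts kept in culture (TFc). The donors in all 4 groups were male, 10 weeks old and of the Rosa mT/mG genotype on the C57BL/6 background, a strain in which cells carry a membrane-bound TdTomato reporter unless Cre recombinase is present. After a first period in culture, 400000 to 500000 cells were soaked into gelatin foam and placed beneath the kidney capsule of C57bl6/j mice aged 10 to 11 weeks, and the remaining cells were replated at 50000 per well as controls. The transplanted cells were recovered after 3 days by sorting live CD45-;TdTomato+ cells. The methods used here state no such sort for the replated controls, so the gate and the transplantation cannot be told apart. The question was which genes responded differently in the 2 organs' fibroblasts to the same site, which for kidney fibroblasts is their organ of origin and for tail fibroblasts a foreign one.

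Fibroblasts make and remodel the extracellular matrix, and they sense injury. At a wound they meet interferons, tumour necrosis factor and interleukin 1, which act through STAT and NF-kB transcription factors to raise antiviral genes, antigen presentation, complement and chemokines that draw in leukocytes. They may also enter the cell cycle, exchange basement membrane for fibrillar collagen, and release or bind growth factors of the IGF, Wnt, BMP and TGF-beta families. Fibroblasts of different organs keep distinct positional programmes, among them the Hox code, which is set during development.

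For each gene, the response is the log2 fold change of transplanted over cultured cells, and the difference of response is the kidney response minus the tail response. A positive difference means that the gene rose more, or fell less, in kidney than in tail fibroblasts. Values of single libraries are in CPM, read counts scaled by TMM to the same library total, always given in the order of replicates 1, 2 and 3, and SE is the standard error on the log2 scale. Tests were edgeR's quasi-likelihood tests, two-sided, with p-values adjusted by the Benjamini-Hochberg method across every gene tested and a threshold of 0.05. Because bulk RNA was measured, fewer cells of a type and less RNA per cell cannot be told apart.

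One library stood apart. The labels give male donors, yet KFs replicate 3 had 1492 CPM of Xist, the RNA of the inactive X chromosome, against at most 0.404 in the other 11 libraries, and its summed Y-linked genes were at 0.722 CPM against 175 to 206. It correlated with KFs replicates 1 and 2 by 0.937 and 0.938, whereas these correlated with each other by 0.983 and the libraries of the other groups by at least 0.986. Its summed level of 18 general fibroblast markers was the lowest of the transplanted libraries, 17246 CPM against 64391 and 53783 CPM in KFs replicates 1 and 2 and 26655–33124 CPM in TFs; KFc had 17105–18190 CPM and TFc 19986–20176 CPM. Its epithelial adhesion and keratin genes summed to 180 CPM, against 27.2 and 21.6 CPM in KFs replicates 1 and 2. The values given are from the fit of all 18 libraries, which includes heart fibroblasts for the estimate of the spread, unless a fit of 17 libraries without KFs replicate 3 is named. The calls of both fits are given for the gene lists of pathways and position, and for single genes the 17-library value is given where leaving out KFs replicate 3 ended or made the call, turned the sign or moved the difference widely. Total counts ran from 17927838 to 32245168 per library, so that 3 counts, the level at or under which a gene is treated as not measurable, corresponded to 0.089 to 0.161 CPM.

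The response differed between kidney and tail fibroblasts for 1835 of the 16577 genes tested (11.1%). In 828 genes (4.99%) the kidney response was the higher, and in 1007 genes (6.07%) the lower. Kidney fibroblasts by themselves raised 4326 genes (26.1%) and lowered 3765 (22.7%), and tail fibroblasts raised 3083 (18.6%) and lowered 3350 (20.2%). Among the 828 genes with the higher kidney response, 427 (51.6%) rose in kidney fibroblasts and did not pass the threshold in tail fibroblasts, 145 (17.5%) fell in tail fibroblasts alone, 136 rose in both, 71 rose in kidney and fell in tail, and 38 fell in both. Among the 1007 with the lower kidney response, 349 (34.7%) fell in kidney fibroblasts alone, 232 fell in both, 219 rose in tail fibroblasts alone, 110 rose in both, and 93 fell in kidney and rose in tail. The 17-library fit called 3619 of 16923 genes (21.4%), 1645 with the higher kidney response (9.72%) and 1974 with the lower (11.7%). Of the 1835 genes, 1794 (97.8%) passed in both fits with the same sign, 788 higher and 1006 lower. In 1672 of the 1794 the 9 pairwise ratios of KFs to KFc libraries, computed on CPM plus 0.5, did not overlap the 9 of TFs to TFc. The 1794 genes were selected by tests on the same libraries, so this count is no separate support. The share without overlap over all genes tested is not given here. The median absolute difference of the 1794 genes was 1.06 on the log2 scale, and 960 differed by more than 1. The total moved by more than 1.5 times when KFs replicate 3 was left out and, to 1198 genes, when TFc replicate 3 was left out. The split into higher and lower depended on the libraries fitted: 45.1% of the calls were higher in kidney in the 18-library fit and 31.6% (409 of 1295) with the 12 kidney and tail libraries alone.

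**Figure D1:**
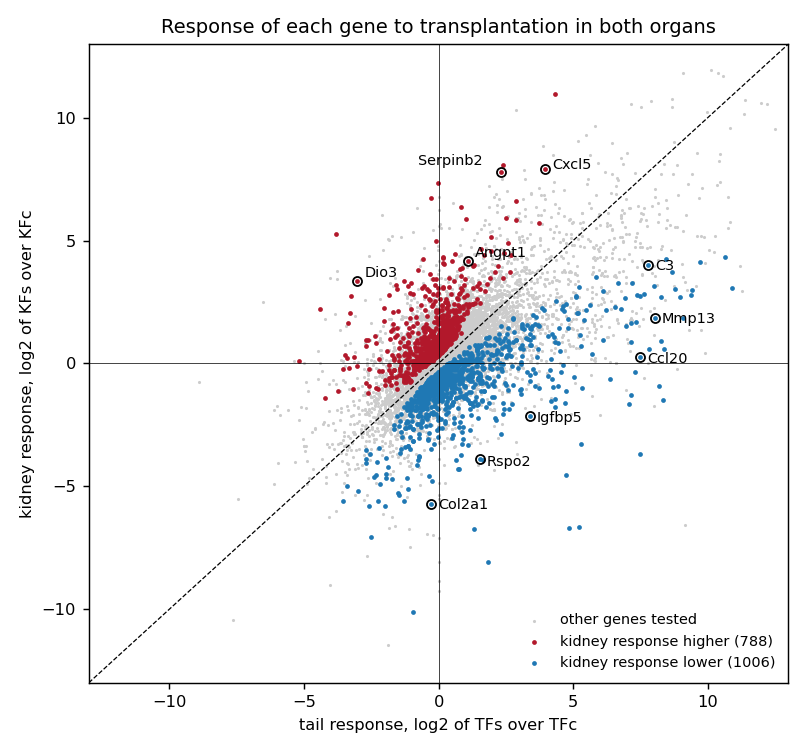
Each point is 1 of 16577 genes, with the log2 response of tail fibroblasts (TFs over TFc) on the horizontal axis and that of kidney fibroblasts (KFs over KFc) on the vertical axis, as fitted to all 18 libraries. Red marks the 788 genes whose kidney response was higher and blue the 1006 whose kidney response was lower in the fits with and without KFs replicate 3, and the dashed line marks equal responses; points far from the origin include genes at or under 3 counts in 1 group, whose position is a fitted value.

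The 1835 genes were then read by function, using lists of genes with a shared role. In 4 lists of immune genes (interferon-stimulated genes, complement, MHC and antigen processing, NF-kB feedback and targets) every member that passed in the 18-library fit had the lower kidney response. Chemokines (2 higher and 6 lower) and acute phase genes (1 and 1) went both ways, and cytokines gave 0 and 2. In 4 lists of proliferation genes (histones, DNA replication, mitosis, homologous recombination) every member that passed in that fit had the higher kidney response. For homologous recombination these were only 2 of 23 genes, beside 4.99% higher over all genes. In the 17-library fit 1 MHC gene was higher and 1 homologous recombination gene lower. The median difference over all genes tested was 0.07 in the 18-library fit and 0.00 in the 17-library fit, against which the medians of the lists can be read. Likewise, the counts of each list stand beside 4.99% higher and 6.07% lower over all genes, and 9.72% and 11.7% in the 17-library fit.

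**Figure D2:**
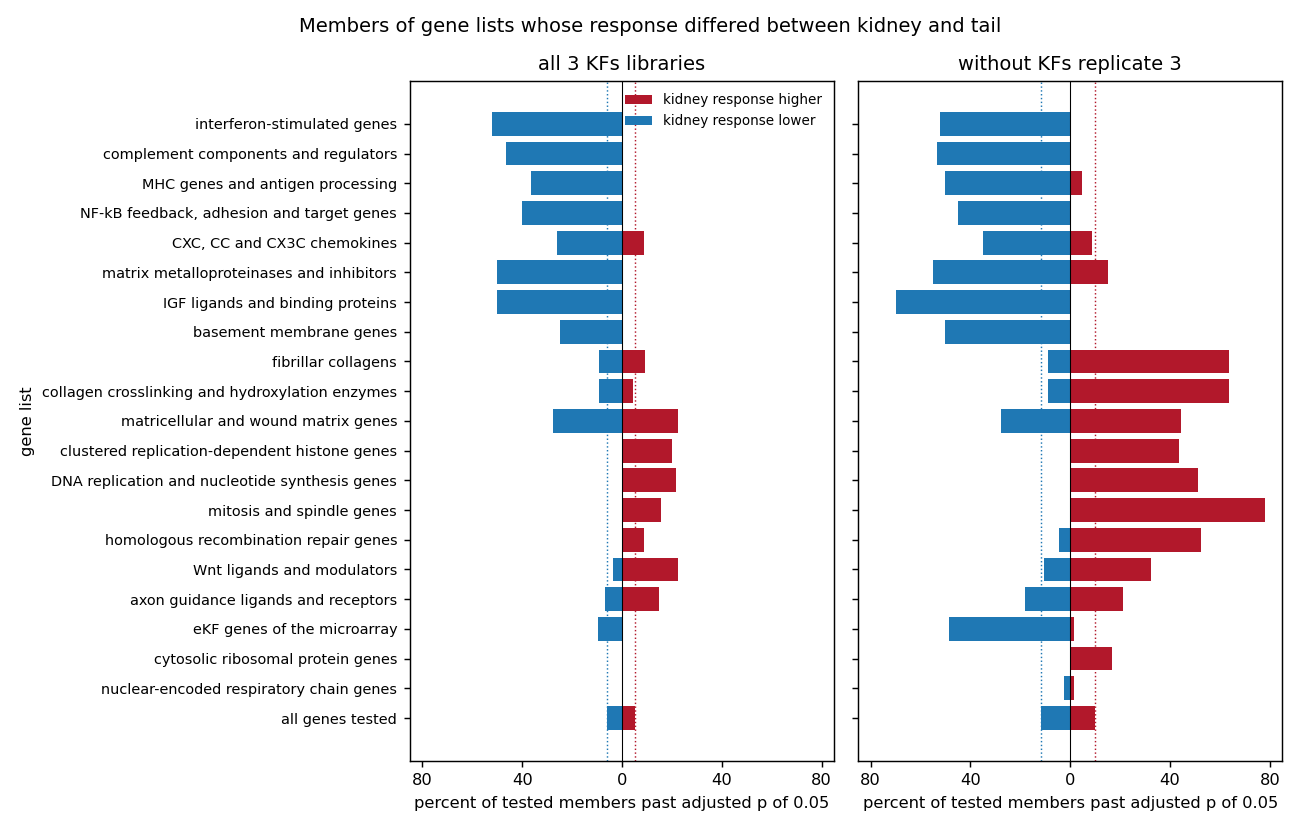
Bars give the percent of a list's tested members whose difference of response passed the adjusted p threshold of 0.05, to the right for a higher and to the left for a lower kidney response, with all 3 KFs libraries (left panel) and without KFs replicate 3 (right panel). Dotted lines mark the percent over all genes tested, 4.99% higher and 6.07% lower on the left and 9.72% and 11.7% on the right; 12 of 23 interferon-stimulated genes lay to the left in both panels, while mitosis genes to the right went from 5 to 25 of 32.

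Interferon-stimulated genes, which restrict viruses and relay interferon signals, rose in both organs and rose less in kidney fibroblasts. All 23 of 23 tested members rose in tail fibroblasts and 20 rose in kidney fibroblasts, and the difference of response was negative and significant for 12 of them in the 18-library fit and 12 in the 17-library fit (median -2.16 and -2.29). Oas1a, which makes the activator of RNase L, was at 3.92, 2.02 and 3.97 CPM in KFs, 1.98, 1.78 and 1.66 CPM in KFc, 16.8, 9.41 and 5.34 CPM in TFs and 0.475, 0.235 and 0.877 CPM in TFc. The KFs libraries lay just above their controls and below each TFs library, and the difference of response was -3.45 (SE 0.65, adjusted p = 0.00332). Bst2, which tethers budding virions, was at 16.3, 5.45 and 12 CPM in KFs against 4.1, 4.71 and 5.98 CPM in KFc, and at 49.6, 37.4 and 28.3 CPM in TFs against 3.15, 3.53 and 4.38 CPM in TFc, a difference of -2.21 (SE 0.48, adjusted p = 0.0077). Gbp2, a guanylate-binding protein induced by interferon gamma, stood at 54.9, 17.8 and 35.3 CPM in KFs against 11.3–13.4 CPM in KFc and at 173, 242 and 162 CPM in TFs against 14.8–19.3 CPM in TFc (difference -1.95, SE 0.42, adjusted p = 0.00777). In these genes KFs replicate 2 was the lowest of the transplanted libraries, and the KFs and TFs libraries did not overlap. Zbp1, a sensor of Z-form nucleic acid, rose in both organs, by 3.27 in kidney and 7.18 in tail fibroblasts (difference -3.91, SE 0.84, adjusted p = 0.00733). The others that passed were Cmpk2, Gbp3, Ifit1, Ifit2, Ifit3, Irf7, Isg15 and Oasl2. Of the members that did not pass, Irf1, a transcription factor of the same response, is named after its values were seen; its difference was 0.07 (SE 0.27, adjusted p = 0.916).

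The mean levels of proximal tubule markers and of these genes were both higher in each transplanted than in each cultured library. Both were also higher in each TFs than in each KFs library, but ranked TFs replicates 2 and 3 in opposite order. The mean log2(CPM + 1) of the interferon-stimulated list was 4.52, 2.44 and 3.94 in KFs, 2.22–2.35 in KFc, 6.05, 5.45 and 5.28 in TFs and 2.11–2.23 in TFc. That of 23 proximal tubule markers, the signature of the host organ's main epithelium, was 2.67, 1.98 and 2.03 in KFs, 0.73–0.79 in KFc, 3.91, 2.83 and 3.18 in TFs and 0.56–0.58 in TFc. The proximal tubule level of each library was also fitted as a covariate, a choice made with earlier results of these data known. With it, 5 of the 12 interferon-stimulated genes still passed, and the median difference of the 23 members was -1.92 in place of -2.16. Over all genes 1041 of the 1835 calls passed with the covariate. Because the proximal tubule level largely followed the grouping into cultured and transplanted libraries, lost calls do not show a part of tubule cells. Of 18 macrophage markers, 11 fell in kidney and 8 in tail fibroblasts, and none passed the test of the difference; their summed level was 212, 169 and 43.9 CPM in KFs against 601–659 CPM in KFc, and 58.4–66.6 CPM in TFs against 225–258 CPM in TFc.

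**Figure D3:**
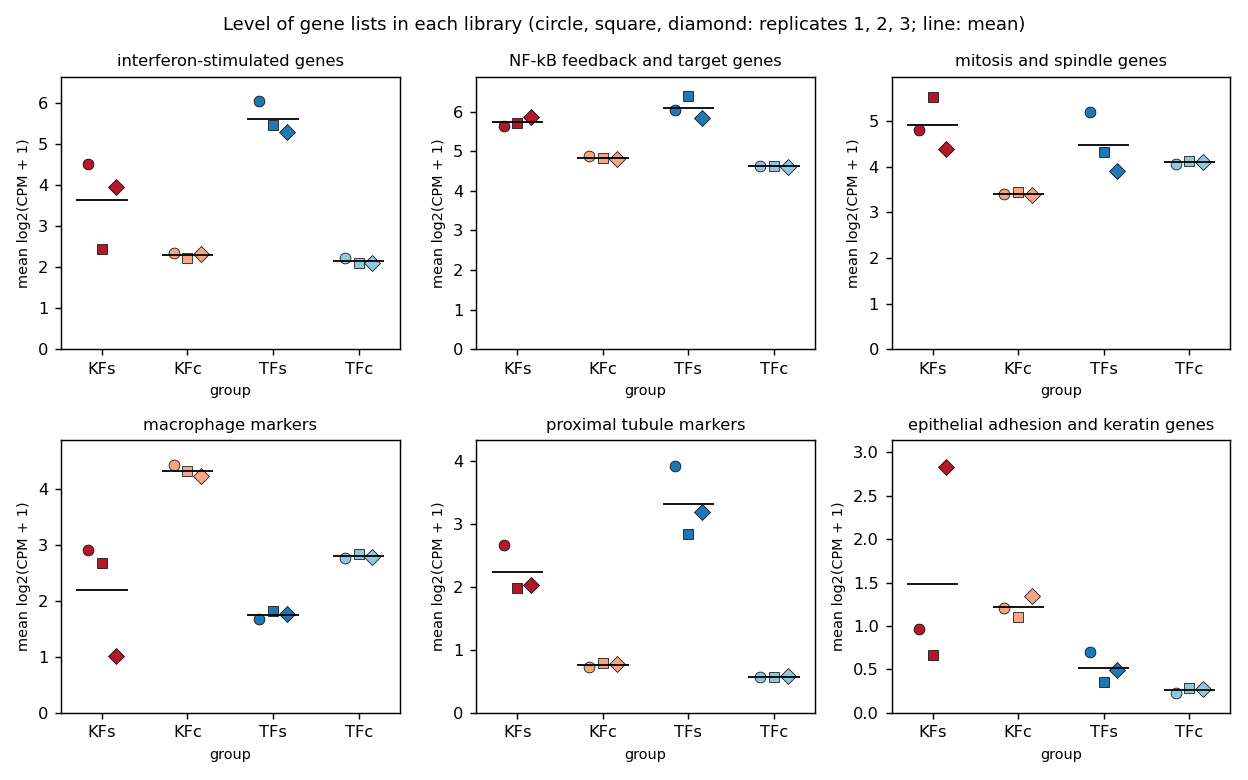
Mean log2(CPM + 1) of 6 gene lists in each of the 12 libraries (circle, square and diamond for replicates 1, 2 and 3, line for the mean). Interferon-stimulated genes lay higher in each TFs library than in each KFs library, while KFs replicate 3 alone was high in epithelial adhesion and keratin genes and was the lowest of all libraries in macrophage markers.

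Promoter letters recognised by interferon-activated factors were looked up for the same list. The 250 bases before the transcription start were read from RefSeq (GRCm38.p6) for the 17 members with an entry, and 9 of them (52.9%) held GAAA and again GAAA with 2 bases between them, the core of an interferon-stimulated response element (ISRE), on either strand, against 3.25% of 11833 tested genes with an entry. The stretches of 70 bases around these letters are shown for the members with the smallest adjusted p among those that held them (Oas1a, Bst2, Gbp2 and Gbp3), written along each gene's own strand with the matched letters, overlapping matches included, in capitals. On the minus strand Oas1a lies at chr5:120907526-120907595 and Bst2 at chr8:71537560-71537629, and on the plus strand Gbp2 at chr3:142620574-142620643 and Gbp3 at chr3:142559972-142560041.
Oas1a: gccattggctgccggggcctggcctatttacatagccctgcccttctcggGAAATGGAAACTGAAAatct
Bst2: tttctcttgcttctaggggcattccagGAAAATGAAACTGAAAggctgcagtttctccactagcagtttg
Gbp2: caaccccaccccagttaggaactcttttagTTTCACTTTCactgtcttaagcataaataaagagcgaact
Gbp3: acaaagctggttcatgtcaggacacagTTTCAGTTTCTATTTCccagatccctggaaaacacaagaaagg
In Oas1a the matched letters ended 4 bases before the start, and in Bst2 114 bases before it; in Gbp2 and Gbp3 the letters were found on the opposite strand. A match describes the letters only.

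Complement genes and those of antigen presentation followed the same direction. Of 15 complement components and regulators tested, 7 had the lower kidney response and 0 the higher (median -1.53), and 8 the lower in the 17-library fit; with the proximal tubule covariate 4 passed (median -1.35). C3, the central component that is cleaved on activation, was at 1238, 286 and 1321 CPM in KFs against 56.9, 56.9 and 61 CPM in KFc and at 3398, 4535 and 4648 CPM in TFs against 16.2, 20.8 and 20 CPM in TFc. It rose in all 6 transplanted libraries, by 4.02 in kidney and 7.79 in tail fibroblasts, and the difference of -3.76 (SE 0.66, adjusted p = 0.00204) was -4.10 without KFs replicate 3. Cd55, which speeds the decay of the convertases, moved in opposite directions: it fell by 0.67 on the log2 scale in kidney and rose by 0.87 in tail fibroblasts (difference -1.55, SE 0.28, adjusted p = 0.00242). Of 22 MHC and antigen-processing genes, 8 had the lower kidney response and 0 the higher (median -1.03), in the 17-library fit 11 and 1, and with the covariate 5 and 0 (median -0.97). B2m, the light chain of class I molecules, was at 167, 88.4 and 132 CPM in KFs and 125, 131 and 124 CPM in KFc, so that the groups overlapped, and at 585, 512 and 402 CPM in TFs against 96.8, 103 and 106 CPM in TFc. Its kidney response was 0.02 and its tail response 2.29, a difference of -2.27 (SE 0.25, adjusted p = 6.2e-05). The class I heavy chain H2-D1 was at 98, 47.6 and 94.6 CPM in KFs against 59.8–66 CPM in KFc and at 616, 489 and 406 CPM in TFs against 81.7–90.5 CPM in TFc (difference -2.18, SE 0.29, adjusted p = 0.000298). H2-K1 differed by -1.60 (SE 0.28) and H2-T23 by -0.81 (SE 0.18). Class I, Oas1, Gbp and clustered histone genes have near-identical copies, among which the counting divides shared reads, so the share of each copy is uncertain.

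Among NF-kB feedback, adhesion and target genes, a list that includes NF-kB subunits, those that passed had the lower kidney response. Of this list 13 genes rose in kidney and 14 in tail fibroblasts. Of 20 tested, 8 had the lower kidney response and 0 the higher (median -0.81), and 9 the lower in the 17-library fit; with the proximal tubule level as a covariate 10 passed (median -1.08). Tnip1, a partner of the A20 enzyme, was at 74.9, 73.5 and 94.5 CPM in KFs against 77.3, 71.3 and 64.6 CPM in KFc, and at 189, 279 and 175 CPM in TFs against 62.1, 59.4 and 52.6 CPM in TFc. It was raised in tail fibroblasts (1.89) and not detectably in kidney fibroblasts (0.19, adjusted p = 0.423), and the difference was -1.70 (SE 0.26, adjusted p = 0.000858). Tnfaip3, which encodes A20, reached a like level in the transplanted cells of both organs, 103, 106 and 179 CPM in KFs and 109, 119 and 86.9 CPM in TFs, from 21.6–22.6 CPM in KFc and 3.99–6.2 CPM in TFc. Its difference of -1.83 (SE 0.31, adjusted p = 0.00157) thus went with a control level that was higher in kidney than in tail cultures. Nfkbie, an inhibitor that holds NF-kB in the cytoplasm, rose in both organs from a higher level in kidney than in tail cultures, but every TFs library was above every KFs library, with 32.2, 32.8 and 34.6 CPM in KFs, 6.88–10.8 CPM in KFc, 44.2, 70.4 and 46.1 CPM in TFs and 4.3–4.87 CPM in TFc (difference -1.57, SE 0.29, adjusted p = 0.00309). Tnfaip2 differed by -1.91 (SE 0.35, adjusted p = 0.00292).

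Chemokines split by gene. Of 23 tested, 6 had the lower kidney response and 2 the higher (median -1.32, or -1.03 with genes at or under 3 counts set to that floor), and in the 17-library fit 8 and 2. Ccl2, which draws monocytes, was at 81.4, 86.2 and 78.6 CPM in KFs and 51.5, 45.1 and 44 CPM in KFc, and at 337, 441 and 259 CPM in TFs and 56.8, 58.6 and 54 CPM in TFc. The cultures of both organs were close, and every TFs library was above every KFs library (difference -1.81, SE 0.36, adjusted p = 0.00512). Ccl20, which draws CCR6-positive lymphocytes and dendritic cells, was at 0.121, 0.513 and 0.802 CPM in KFs, 0.112–0.631 CPM in KFc, 14.1, 26.2 and 8.31 CPM in TFs and at most 0.175 CPM in TFc. Only TFs stood out, with a tail response of 7.48 and a difference of -7.23 (SE 1.23, adjusted p = 0.00175). Cxcl14, a chemokine of resting tissue, fell in both organs, from 18.4–19.2 to 0.97–2.69 CPM in kidney and from 199–218 to 81.6–108 CPM in tail fibroblasts, and fell more in kidney (difference -2.22, SE 0.31, adjusted p = 0.000405). Cxcl16 differed by -1.03 (SE 0.19, adjusted p = 0.00297). The opposite direction was seen for Cxcl5 and Cxcl1, ligands of the neutrophil receptor CXCR2. Cxcl5 was at 88.2, 141 and 26.5 CPM in KFs, at most 0.634 CPM in KFc, 517, 438 and 308 CPM in TFs and 25.1, 28.3 and 27.9 CPM in TFc. The TFs libraries were still the highest, but the kidney response of 7.90 exceeded the tail response of 3.96 (difference 3.95, SE 0.76, adjusted p = 0.00403). Cxcl1 was at 101, 79.1 and 50.9 CPM in KFs and 105, 102 and 45.6 CPM in TFs, which overlapped, from 0.838–1.79 CPM in KFc and 6.09–6.67 CPM in TFc (kidney response 5.72, tail response 3.72, SE of the difference 0.54, adjusted p = 0.0278), and its call ended when KFc replicate 2 or any TFc library was left out. Cxcl2, a further CXCR2 ligand named after its values were seen, did not share this direction: it had counts of 249, 328 and 88 in KFs, 6, 5 and 3 in KFc, 155, 225 and 136 in TFs and 0, 0 and 1 in TFc, a rise of 5.57 on the log2 scale in kidney and of at least 71.8-fold in tail fibroblasts, and its difference did not pass (adjusted p = 0.0882).

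The kappaB letters, GGGA and TTCC with 2 bases between them on either strand, lay in the 250 bases before the start of 4 of 17 chemokine genes with an entry (23.5%), against 1.44% of the 11833 tested genes. Stretches of 70 bases are shown for a gene of each direction, Cxcl10 at chr5:92349009-92349078 on the minus strand and Cxcl1 at chr5:90891145-90891214 on the plus strand, with the matched letters in capitals.
Cxcl10: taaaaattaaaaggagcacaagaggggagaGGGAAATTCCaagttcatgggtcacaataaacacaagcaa
Cxcl1: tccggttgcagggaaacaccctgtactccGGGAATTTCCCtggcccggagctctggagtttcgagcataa
Cxcl10, named for this comparison after its values were seen, had counts of 161, 22 and 193 in KFs, 3, 10 and 8 in KFc, 668, 642 and 429 in TFs and 0, 0 and 1 in TFc. It rose in tail fibroblasts at least 246-fold against a floor of 3 counts per library, by 4.31 on the log2 scale in kidney fibroblasts, and its difference had an adjusted p of 0.0156. Genes of both directions thus held the letters.

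Of 16 cytokines and colony-stimulating factors, 2 had the lower kidney response and none the higher, and 5 the lower in the 17-library fit. Il6, an inducer of the acute phase, was at 24.4, 17.6 and 13.3 CPM in KFs against 7.18–9.95 CPM in KFc and at 14.3, 13 and 3.39 CPM in TFs against at most 0.482 CPM in TFc. The transplanted libraries of the 2 organs overlapped, the cultures did not, and the difference was -4.09 (SE 0.83, adjusted p = 0.00512). Csf1, the growth factor of macrophages, fell in both organs, from 2032–2105 to 332–402 CPM in kidney and from 1914–1962 to 504–736 CPM in tail fibroblasts (difference -0.83, SE 0.21, adjusted p = 0.021, lost without TFs replicate 2). Of 16 acute phase and inflammatory enzyme genes, 1 had the lower and 1 the higher kidney response, and in the 17-library fit 3 and 1 of 17. Ch25h, which makes 25-hydroxycholesterol, fell in kidney (24–26.3 to 12.2–14.8 CPM) and rose in tail fibroblasts (1.66–2.1 to 3.44–8.31 CPM), a difference of -2.76 (SE 0.36, adjusted p = 0.000213). Serpina3i, a serine protease inhibitor with several close copies, had counts of 157, 99 and 496 in KFs, 0, 0 and 0 in KFc, 163, 210 and 235 in TFs and 13, 13 and 12 in TFc. It rose at least 93-fold in kidney fibroblasts and by 4.31 on the log2 scale in tail fibroblasts, and the adjusted p of its difference was 0.0264, a call that ended when any KFc library or TFc replicate 2 or 3 was left out.

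Genes of the cell cycle rose in kidney fibroblasts, and those that passed rose more there than in tail fibroblasts. Among 32 mitosis and spindle genes, 31 rose in kidney and 7 in tail fibroblasts, and 5 had the higher kidney response against 0 lower (median 1.20). The 17-library fit called 25 higher and none lower (median 1.38). Of 37 DNA replication and nucleotide synthesis genes the numbers were 8 higher and 0 lower (median 0.81), and 19 and 0 without KFs replicate 3. Of 55 clustered histone genes, whose RNA is made in S phase, 11 were higher and 0 lower (median 1.26), and 24 and 0 in the 17-library fit. Of 23 homologous recombination genes, 2 were higher and 0 lower, and then 12 and 1. With the proximal tubule level as a covariate, 1 gene in each of these 4 lists passed, while the medians were close to those without it: 1.30 for mitosis, 0.72 for DNA replication, 1.20 for histone and 0.71 for homologous recombination genes, the last from 0.83.

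Cenpf, a kinetochore protein, was at 115, 169 and 82.8 CPM in KFs, 28, 24.2 and 25.7 CPM in KFc, 177, 99.1 and 80.3 CPM in TFs and 68.5, 67.7 and 69.3 CPM in TFc. The KFc libraries were the lowest of all, TFs replicate 1 was above the other TFs libraries, and KFs and TFs overlapped (difference 1.44, SE 0.35, adjusted p = 0.0166). The same layout was seen for Prc1, which bundles microtubules at the spindle midzone (62, 92.5 and 46.9 CPM in KFs, 23.3–26.9 in KFc, 78.1, 39 and 32.1 in TFs and 42.9–48.2 in TFc; difference 1.28, SE 0.38, adjusted p = 0.0422). Pole2, a subunit of DNA polymerase epsilon, was at 4.2, 5.87 and 3.13 CPM in KFs, 0.593–0.97 CPM in KFc, 4.01, 3.59 and 2.71 CPM in TFs and 2.54–3.06 CPM in TFc (difference 2.14, SE 0.43, adjusted p = 0.00489). Mcm7, of the replicative helicase, was at 37.4, 56 and 40.6 CPM in KFs, 22.5–26 CPM in KFc, 42.1, 30.5 and 29.5 CPM in TFs and 29.5–33.3 CPM in TFc, and differed by 0.79 (SE 0.21, adjusted p = 0.0261). The histone H4 gene Hist1h4d differed by 1.49 (SE 0.32, adjusted p = 0.0083) and the H2A gene Hist1h2ac by 1.76 (SE 0.45, adjusted p = 0.0192). Brca2, a homologous recombination factor, rose in kidney (5.26–8.24 to 14.3–20.6 CPM) and not detectably in tail fibroblasts (13.5–15.8 to 17.4–22.2 CPM; tail adjusted p = 0.135), with a difference of 1.05 (SE 0.25, adjusted p = 0.0153). The calls of Prc1, Mcm7 and Hist1h2ac ended when TFs replicate 2 or 3 was left out, and also without KFc replicate 1 for Hist1h2ac, without KFs replicate 2 or KFc or TFc replicate 2 or 3 for Mcm7, and without KFs replicate 2 or any KFc or TFc library for Prc1. Mki67, the proliferation antigen Ki-67, named after its values were seen, was at 359, 574 and 253 CPM in KFs, 79.9–82.7 CPM in KFc, 465, 229 and 173 CPM in TFs and 147–154 CPM in TFc. Its difference of 1.33 (SE 0.43) passed in the 17-library fit (adjusted p = 0.00894) and not in the 18-library fit (adjusted p = 0.0567).

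Targets of p53, many of which restrain the cycle, fell in both organs (15 of 22 in kidney and 14 in tail fibroblasts). In 5 the kidney response was the lower and in 1 the higher, and in the 17-library fit in 8 and 1. Ccng1, which encodes cyclin G1, fell from 1210–1306 to 441–468 CPM in kidney and from 475–496 to 226–251 CPM in tail fibroblasts (difference -0.43, SE 0.12, adjusted p = 0.032), a call that ended with scaling by library size alone and without any KFc library, TFs replicate 2 or TFc replicate 1. Fas, a death receptor, fell in kidney (26.9–31.3 to 12–18.1 CPM) and rose in tail fibroblasts (23.6–26.2 to 30.2–42.8 CPM), a difference of -1.49 (SE 0.21, adjusted p = 0.00044).

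The matrix genes were read in separate lists, by the kind of matrix. For basement membranes, thin sheets of collagen IV, laminin and nidogen, 5 of 20 genes had the lower kidney response and 0 the higher (median -0.70), and 10 of 20 the lower in the 17-library fit. Col4a1, a chain of the common collagen IV, was at 3253, 2646 and 2081 CPM in KFs, 4199, 4051 and 3806 CPM in KFc, 1836, 1705 and 1656 CPM in TFs and 646, 599 and 647 CPM in TFc. It was highest in cultured kidney fibroblasts and lowest in cultured tail fibroblasts, and it fell in the first and rose in the second (kidney -0.60, tail 1.46, difference -2.05, SE 0.19, adjusted p = 1.46e-05). Its partner chain Col4a2, which shares a promoter region with it, had a difference of -1.90 (SE 0.22, adjusted p = 9.17e-05). Nid2, which links laminin to collagen IV, was at 102, 57.6 and 11.2 CPM in KFs against 171–181 CPM in KFc and at 343, 269 and 348 CPM in TFs against 81.7–91.1 CPM in TFc. KFs replicate 3 was far below the other KFs libraries, and the difference of -3.52 (SE 0.65) was -3.06 (SE 0.28) without it. Lamb1 rose in both organs and differed by -0.62 (SE 0.13, adjusted p = 0.00594).

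Fibrillar collagens, the load-bearing fibres of scars, showed a difference that depended on KFs replicate 3. In the 18-library fit 1 of 11 had the higher kidney response and 1 the lower, and in the 17-library fit 7 and 1. The gene higher in both fits was Col5a3, which rose from 34.3–40.7 CPM to 757, 1260 and 537 CPM in KFs and from 143–148 CPM to 1107, 675 and 563 CPM in TFs (difference 2.05, SE 0.38, adjusted p = 0.00313). Col1a1, the main chain of type I collagen, was named after its values were seen: it was at 37637, 31110 and 8719 CPM in KFs against 5900–6359 CPM in KFc and at 15983, 12209 and 11276 CPM in TFs against 7623–7767 CPM in TFc. KFs replicate 3 was the only KFs library below the TFs libraries, and the difference was 1.29 (SE 0.52, adjusted p = 0.125) with it and 1.68 (SE 0.27, adjusted p = 0.000396) without it. Collagen crosslinking and hydroxylation enzymes behaved alike in number, with 1 higher and 2 lower of 22, and 14 and 2 without that library. Among them Loxl2, a lysyl oxidase, rose in tail (222–226 to 482–906 CPM) and not detectably in kidney fibroblasts (1278, 1812 and 805 CPM in KFs around 1116–1194 CPM in KFc; difference -1.32, SE 0.36, adjusted p = 0.0265), a call that ended without KFc replicate 1 or 2, TFs replicate 1 or any TFc library and with the proximal tubule covariate. P3h2, a prolyl 3-hydroxylase of collagen IV, rose in tail (2.98–4.33 to 21.7–25.4 CPM) and was at 2.83, 2.47 and 4.89 CPM in KFs against 1.79–2.89 CPM in KFc (difference -2.10, SE 0.39, adjusted p = 0.00299).

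Matrix metalloproteinases and their inhibitors had the lower kidney response in 10 of 20 genes and the higher in 0 (median -0.84, or -0.65 with the 1 gene at the floor set there), and in the 17-library fit in 11 and 3, and with the proximal tubule covariate in 5 and 0 (median -0.73). Mmp13, a collagenase, was at 6.14, 5.96 and 1.12 CPM in KFs, 0.97, 1.95 and 0.731 CPM in KFc, 533, 460 and 392 CPM in TFs and 1.16, 1.96 and 2.28 CPM in TFc. Only the TFs libraries were above 10 CPM, with a tail response of 8.03 against 1.86 in kidney (difference -6.17, SE 0.88, adjusted p = 0.000447). Mmp9, a gelatinase, rose in both organs, to 27, 54 and 22.8 CPM in KFs from 2.51–5.18 CPM and to 86.4, 91.7 and 65.3 CPM in TFs from 0.526–1.02 CPM (difference -3.39, SE 0.60, adjusted p = 0.00241). Mmp12, the macrophage elastase, had the smallest adjusted p of the list: it was at 24, 23.6 and 23 CPM in KFs against 18.8–20.7 CPM in KFc and at 20.9, 19.5 and 18.6 CPM in TFs against 5.73–7.15 CPM in TFc (difference -1.35, SE 0.15, adjusted p = 6.57e-05). Its transplanted levels were alike in both organs and its control levels were not. Adamts5, an aggrecanase, fell in kidney (794–823 to 135–271 CPM) and not detectably in tail fibroblasts (374–388 to 270–380 CPM), and differed by -1.72 (SE 0.31, adjusted p = 0.00245).

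Matricellular and wound matrix genes, which tune cell adhesion rather than build fibres, went both ways, 4 higher and 5 lower in kidney of 18 (17-library fit 8 and 5). Spp1, which encodes osteopontin, was at 1280, 3697 and 8288 CPM in KFs, 451, 383 and 446 CPM in KFc, 2045, 2152 and 2004 CPM in TFs and 1360, 1384 and 1389 CPM in TFc. The KFs libraries were widely spread, with replicate 3 the highest and replicate 1 below the TFs libraries (difference 2.79, SE 0.57, adjusted p = 0.00544; 1.93 without KFs replicate 3). Fn1, fibronectin, fell in tail (17520–17911 to 10653–13826 CPM) and was at 8739, 8526 and 10417 CPM in KFs against 6863–7236 CPM in KFc (difference 0.90, SE 0.23, adjusted p = 0.0193). Thbs3, a thrombospondin, rose more in kidney (difference 1.10, SE 0.24), and Ccn3, a relative of Ccn5, fell in tail while in KFs it was at 117, 19.6 and 15.3 CPM against 23.7–27.5 CPM in KFc (difference 3.57, SE 0.80, adjusted p = 0.00951). In the other direction, Postn, which encodes periostin, rose in both organs and less in kidney: 2530, 1047 and 363 CPM in KFs, 165, 176 and 169 CPM in KFc, 717, 685 and 960 CPM in TFs and 11.2, 11.7 and 11.1 CPM in TFc (difference -3.17, SE 0.63, adjusted p = 0.00453). Ccn5, which restrains smooth muscle growth, fell in kidney from 130–138 to 2.6–12.4 CPM and in TFs was at 240, 269 and 285 CPM against 446–468 CPM in TFc (difference -3.36, SE 0.45, adjusted p = 0.000308). Tnxb, which encodes tenascin X, rose in tail fibroblasts, and Comp, cartilage oligomeric matrix protein, fell in kidney fibroblasts (differences -3.42, SE 0.79, and -3.18, SE 0.69). The call of Fn1 ended when KFc replicate 3, TFc replicate 2 or TFc replicate 3 was left out.

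Contractile genes of myofibroblasts fell in both organs, 16 of 17 in kidney and 12 in tail fibroblasts, with a median difference of 0.02. The kidney response was lower for 4 of them and higher for none, and without KFs replicate 3 lower for 4 and higher for 3. Tpm1, a tropomyosin, fell in kidney from 2701–2805 to 1161–1486 CPM and was at 1306, 1084 and 990 CPM in TFs against 960–992 CPM in TFc (difference -1.20, SE 0.21, adjusted p = 0.00221). Des, the intermediate filament desmin, fell in kidney from 130–139 to 18.7–70.7 CPM and rose in tail fibroblasts from 1.81–2.5 to 5.04–5.51 CPM (difference -2.75, SE 0.50, adjusted p = 0.00275). The levels stayed apart after transplantation, with every KFs library above every TFs library. Synpo2 and Mylk differed by -2.06 (SE 0.49) and -1.69 (SE 0.44), the second call lost without TFs replicate 2.

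Among secreted signals, the IGF system, in which binding proteins hold insulin-like growth factors in the matrix, had the lower kidney response in 5 of 10 members and the higher in none (median -1.02), and 7 in the 17-library fit. Igfbp5 was at 13.9, 7.44 and 21.9 CPM in KFs, 73.3, 62.8 and 56.1 CPM in KFc, 766, 1313 and 1404 CPM in TFs and 118, 104 and 109 CPM in TFc. It fell in each KFs library and rose in each TFs library (kidney -2.16, tail 3.39, difference -5.55, SE 0.67, adjusted p = 0.000125). Igfbp7 moved in the same opposed way with little spread, to 375, 340 and 352 CPM in KFs from 524, 536 and 519 CPM and to 252, 236 and 248 CPM in TFs from 152, 151 and 156 CPM (difference -1.24, SE 0.10, adjusted p = 5.78e-06). Igfbp2 fell in both organs, from 98.3–108 to 3.17–5.61 CPM in kidney and from 261–276 to 31.4–66.8 CPM in tail fibroblasts, and fell more in kidney (difference -2.25, SE 0.31, adjusted p = 0.000351). Igfbp6 did likewise, with a difference of -2.33 (SE 0.36, adjusted p = 0.000795).

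Wnt ligands and modulators had the higher kidney response in 6 of 27 genes and the lower in 1 (median 0.85), and in the 17-library fit in 9 and 3 of 28. Dkk2 and Dkk3, among the higher ones, fell in tail fibroblasts with no change past the threshold in kidney fibroblasts. Dkk2, a secreted Wnt antagonist, was at 51.3, 35 and 35.6 CPM in KFs, 45.4, 48.5 and 50.1 CPM in KFc, 38.4, 95.9 and 114 CPM in TFs and 982, 1014 and 942 CPM in TFc (difference 3.32, SE 0.52, adjusted p = 0.000899). Dkk3, its relative, fell in tail from 417–430 to 109–155 CPM and in KFs was at 68.6, 58 and 183 CPM against 92.6–95.5 CPM in KFc (difference 1.79, SE 0.44; 1.06, SE 0.23, without KFs replicate 3). Tcf7, a transcription factor of the pathway, was at 1.74, 2.88 and 8.46 CPM in KFs and 1.06–1.64 CPM in KFc, and its difference was 2.44 (SE 0.62) or 1.51 (SE 0.41) without KFs replicate 3, which held the highest value, and its call ended without KFc replicate 3. The single lower gene, Rspo2, an R-spondin that strengthens Wnt signals, fell in kidney and rose in tail fibroblasts: 2.67, 0.705 and 0.361 CPM in KFs, 19.7, 18.5 and 16.7 CPM in KFc, 13.5, 19.3 and 19.3 CPM in TFs and 6.56, 4.79 and 6.84 CPM in TFc (difference -5.41, SE 0.63, adjusted p = 0.000104). Lgr5, a receptor of R-spondins, rose in kidney fibroblasts to 7.32, 1.06 and 2.57 CPM from at most 0.419 CPM, and in TFs was at 5.83, 10.6 and 13.7 CPM against 14.2–15.7 CPM in TFc (difference 4.82, SE 1.02, adjusted p = 0.00687).

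TGF-beta and BMP genes went both ways, 3 higher and 2 lower of 21 TGF-beta genes and 2 higher and 2 lower of 22 BMP genes, and in the 17-library fit 3 and 4 of 21 and 2 and 6 of 23. Over all genes the shares were 4.99% higher and 6.07% lower, and 9.72% and 11.7% in the 17-library fit. Tgfb2 fell in kidney (112–127 to 46.6–60.6 CPM) and rose in tail fibroblasts (15.7–18.9 to 20.1–32.1 CPM), a difference of -1.74 (SE 0.20, adjusted p = 7.22e-05). Inhba, the activin A subunit, fell in both organs, to 107, 222 and 137 CPM in KFs from 345–368 CPM and to 82.9, 55.8 and 57.2 CPM in TFs from 395–414 CPM, and fell less in kidney (difference 1.42, SE 0.29, adjusted p = 0.00583). Ltbp4, which tethers latent TGF-beta to the matrix, rose in kidney from 5.18–6.39 to 25.2–27.9 CPM and in TFs was at 26, 32.4 and 45.8 CPM against 23.5–28.8 CPM in TFc (difference 1.71, SE 0.27, adjusted p = 0.001). Smad6, an intracellular inhibitor of BMP signals, fell in both organs and more in kidney (difference -0.84, SE 0.21; lost without KFc replicate 1, TFs replicate 3 or TFc replicate 3). Id2, a direct target of BMP signals, fell in kidney (difference -1.12, SE 0.24), as did the ligand Gdf6 (difference -1.66, SE 0.41; lost without TFs or TFc replicate 1).

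Of 29 growth and angiogenic factors, 2 had the higher kidney response and 1 the lower, and in the 17-library fit 4 and 7. These counts stood beside 4.99% higher and 6.07% lower over all genes, and 9.72% and 11.7% in the 17-library fit. Angpt1, which stabilises vessels through the TIE2 receptor, rose in kidney fibroblasts to 24.5, 20.1 and 10.9 CPM from 1.45, 1.12 and 0.498 CPM and in tail fibroblasts to 112, 99.1 and 97.2 CPM from 45.6, 46.9 and 52.3 CPM. The tail levels were the higher ones throughout, and the kidney rise was the larger (difference 3.10, SE 0.41, adjusted p = 0.000271). Vegfa, the main factor of vessel growth, rose in tail (71.4–77.8 to 222–377 CPM) and was at 380, 530 and 267 CPM in KFs against 290–314 CPM in KFc, where the groups overlapped (difference -1.57, SE 0.39, adjusted p = 0.0175). Pdgfc differed by 1.39 (SE 0.33, adjusted p = 0.0144).

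Axon guidance ligands and receptors, which also steer migrating fibroblasts, had the higher kidney response in 9 of 60 genes and the lower in 4, and in the 17-library fit in 13 and 11 of 61. Efna5, an ephrin, was at 32.9, 31.5 and 30.8 CPM in KFs against 23.2–26.5 CPM in KFc and at 28.9, 34.5 and 33.6 CPM in TFs against 39.2–43.7 CPM in TFc, small but opposed changes with a difference of 0.73 (SE 0.13, adjusted p = 0.00211). Plxna3, a semaphorin receptor, rose in kidney fibroblasts (difference 1.10, SE 0.23), and the Eph receptor Ephb6 and the ephrin Efna1 differed by 1.35 (SE 0.27) and 3.29 (SE 0.67; 2.25 without KFs replicate 3). Ntn4, a netrin of basement membranes, fell in kidney from 225–238 to 32.5–51.8 CPM and was at 37.1, 22.6 and 21.2 CPM in TFs against 32.2–36.1 CPM in TFc (difference -2.16, SE 0.28, adjusted p = 0.000189). The neuropilins Nrp1 and Nrp2, coreceptors for semaphorins and VEGF, rose in tail and not detectably in kidney fibroblasts, and differed by -1.21 (SE 0.36) and -0.82 (SE 0.23), calls that ended when any TFc or KFc library or TFs replicate 2 or 3 was left out, and for Nrp1 also without KFs replicate 1.

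Hox genes mark position along the body axis. Of 34 tested, 3 had the lower kidney response and 0 the higher, and 7 the lower in the 17-library fit, beside 6.07% and 11.7% lower over all genes; none passed in the fit blocked by replicate number or with the proximal tubule covariate. Hoxc13 fell in both organs, from 10.7–13 to 1–1.17 CPM in kidney and from 36.8–42.6 to 8.13–9.08 CPM in tail fibroblasts (difference -1.22, SE 0.37, adjusted p = 0.0442). Hoxc12 had counts of 1, 0 and 0 in KFs, 11, 18 and 9 in KFc, 104, 130 and 177 in TFs and 786, 531 and 445 in TFc, and it fell at least 3.96-fold in kidney fibroblasts against the floor and fell by 1.74 on the log2 scale in tail fibroblasts (adjusted p of the difference 0.029). Hoxd10 had counts of 12, 17 and 13 in KFs, 31, 48 and 36 in KFc, 5, 3 and 6 in TFs and 0, 1 and 3 in TFc (adjusted p of the difference 0.0478). These 3 calls were close to the threshold: that of Hoxc12 ended when KFs or KFc replicate 2, TFs replicate 3 or TFc replicate 2 or 3 was left out. That of Hoxc13 ended without any single KFc, TFs or TFc library, that of Hoxd10 without any single library but KFs replicate 3 and TFc replicate 3, and both ended with scaling by library size alone. Of other Hox genes the study names, Hoxa5 (difference -0.91, SE 0.50) and Hoxd8 (difference -1.75, SE 0.80) did not pass in the 18-library fit. Hoxb13 was at 0 to 2 counts in all kidney libraries, so its fall in tail fibroblasts, from 65–68.1 to 30.4–35.2 CPM, had no counterpart to compare. Hoxd3 had counts of 23, 16 and 266 in KFs, 31, 32 and 28 in KFc, 11, 2 and 14 in TFs and 0, 2 and 0 in TFc, where KFs replicate 3 alone was high, and the adjusted p of its difference went from 0.508 to 0.0177 when that library was left out.

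Of 19 limb and dermal positional factors, 1 had the higher kidney response and 3 the lower (17-library fit 3 and 3 of 20). The shares over all genes were 4.99% higher and 6.07% lower (17-library fit 9.72% and 11.7%). Msx1, a homeobox factor of growing limb and skin, fell in kidney (1.47–2.23 to 0.445–0.641 CPM) and rose in tail fibroblasts (2.11–3.24 to 3.23–5.78 CPM), a difference of -2.55 (SE 0.39, adjusted p = 0.000815). Twist2, a factor of dermal fibroblasts, fell in kidney from 29.4–34.6 to 7.06–11.1 CPM and in TFs was at 11.2, 9.59 and 9.5 CPM against 11–11.9 CPM in TFc (difference -1.56, SE 0.25, adjusted p = 0.00115). Dlx3, a homeobox factor of hair and bone, fell in tail from 10.1–12.6 to 0.863–1.77 CPM and was at 0.526, 1.09 and 0.802 CPM in KFs against 0.432–1.01 CPM in KFc (difference 3.40, SE 0.76, adjusted p = 0.00955). Among 24 transcription factors of kidney development, 2 had the higher and 2 the lower kidney response, and in the 17-library fit 1 and 10. Osr2, an odd-skipped factor of kidney and limb mesenchyme, rose in tail (0.921–1.81 to 5.4–10.4 CPM) and was at 0.889, 0.192 and 0.241 CPM in KFs against 0.628–1.1 CPM in KFc (difference -3.65, SE 0.87, adjusted p = 0.0138).

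The kidney-enriched genes from the study's microarrays of cultured fibroblasts, called eKF, depended on KFs replicate 3. Of 74 tested, 7 had the lower kidney response and 0 the higher in the 18-library fit (median -0.88, or -0.11 with genes at the floor set there), but 37 of 76 and 1 without that library. Over all genes 6.07% were lower in the 18-library fit and 11.7% in the 17-library fit. Of the 74, 31 had a group at or under 3 counts in each library. The summed level of the eKF genes was 331, 407 and 2166 CPM in KFs, 1110–1198 CPM in KFc, 273–423 CPM in TFs and 181–184 CPM in TFc, so that KFs replicates 1 and 2 lay below their cultures and KFs replicate 3 above. Of the genes called in the 18-library fit, Rgs16, a regulator of G-protein signals, fell in kidney (102–108 to 39.5–59.1 CPM) and rose in tail fibroblasts (7.27–8.29 to 12.2–32.9 CPM; difference -2.79, SE 0.40, adjusted p = 0.000488). Car2, carbonic anhydrase 2, was at 3.6, 2.82 and 5.89 CPM in KFs against 6.45–8.06 CPM in KFc and rose in tail fibroblasts from 0.263–0.712 to 2.91–4.76 CPM (difference -3.62, SE 0.63, adjusted p = 0.00285). Several tubule genes were high in KFs replicate 3 alone, and are named after their values were seen. Havcr1, the kidney injury molecule KIM-1, was at 26.3, 30.7 and 628 CPM in KFs and 68.4–94.2 CPM in KFc. The tubule transcription factor Pax8 was at 6.27, 3.56 and 109 CPM in KFs against 16.8–18.8 CPM in KFc, and the adjusted p of its difference went from 0.22 in the 18-library fit to 8.37e-05 in the 17-library fit, with TFc at 0 to 2 counts.

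**Figure D4:**
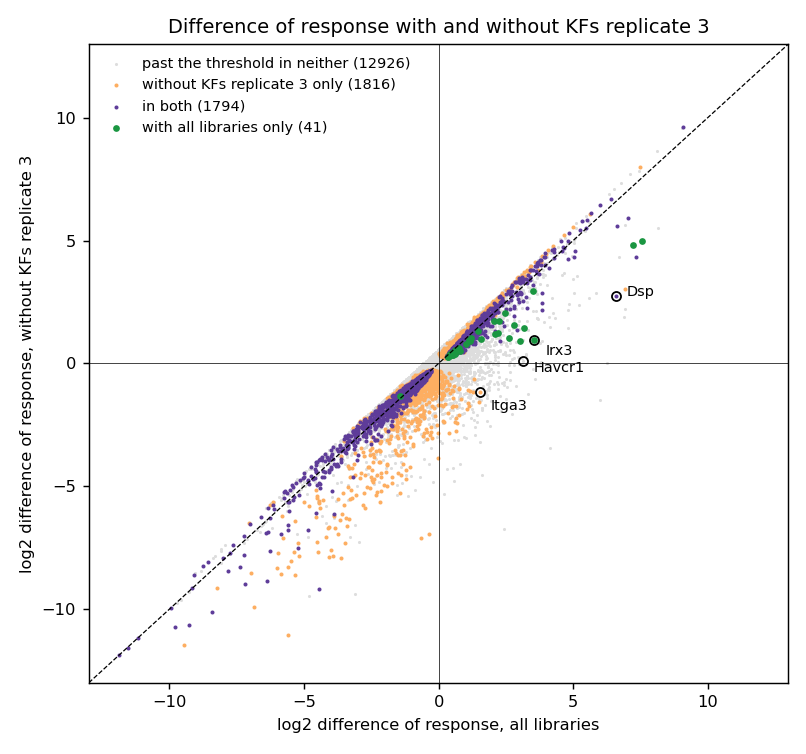
Each point is 1 gene of the 16577 tested with all libraries, placed by its difference of response (kidney minus tail, log2) in the 18-library fit on the horizontal axis and in the fit without KFs replicate 3 on the vertical axis, with the dashed line at equal values. Purple marks 1794 genes past the threshold in both fits, orange those past it only without KFs replicate 3, green the 41 past it only with all libraries; Itga3 lies at 1.52 on the first axis and -1.17 on the second.

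None of 24 sterol synthesis genes, 77 nuclear-encoded respiratory chain genes, 13 mitochondrially encoded genes and 78 ribosomal protein genes passed in either direction in the 18-library fit, with median differences of 0.42, -0.04, 0.13 and 0.06. The sterol genes fell in both organs (15 in kidney and 17 in tail fibroblasts), as did the respiratory chain genes (50 and 42). In the 17-library fit 13 ribosomal protein genes, 4 sterol genes, 1 respiratory chain gene and 1 mitochondrially encoded gene had the higher kidney response, and 2 respiratory chain genes the lower. Glycolysis and hypoxia response genes rose in both organs, 25 of 28 in kidney and 23 in tail fibroblasts, with 3 higher and 1 lower in kidney, and 8 and 1 in the 17-library fit. Ndrg1, a hypoxia-induced gene, rose from 6.55–7.61 CPM to 111, 99.3 and 127 CPM in KFs and from 49.6–52 CPM to 179, 82 and 115 CPM in TFs. The transplanted libraries overlapped and the kidney cultures were the lower (difference 2.68, SE 0.41, adjusted p = 0.000718). Slc16a3, the exporter of lactate, rose by 4.42 in kidney and 2.69 in tail fibroblasts (difference 1.72, SE 0.43, adjusted p = 0.0185).

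Of the stress lists, immediate early genes gave 2 higher and 1 lower of 23, and 4 and 2 in the 17-library fit, among them Jun, at 414, 306 and 376 CPM in KFs, 79.2–85.3 CPM in KFc, 415, 276 and 250 CPM in TFs and 146–154 CPM in TFc (difference 1.08, SE 0.22, adjusted p = 0.00485), and Myc, which rose in kidney alone (difference 0.78, SE 0.19). Of 19 genes of the unfolded protein response 2 were higher and none lower, and in the 17-library fit 10; Creld2, an endoplasmic reticulum protein, rose in kidney and fell in tail fibroblasts (difference 0.80, SE 0.13, adjusted p = 0.00115). Of 18 amino acid and one-carbon genes under ATF4, 2 were lower and none higher, and in the 17-library fit 3 and 4; Nupr1, a stress regulator of chromatin, fell in kidney (131–138 to 46.5–63.6 CPM) and was at 44.9, 38.8 and 32.5 CPM in TFs against 33.3–35.1 CPM in TFc (difference -1.46, SE 0.16, adjusted p = 6.57e-05).

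Among the 12 protein-coding genes with the largest positive difference that passed in both fits, without overlap of the pairwise ratios and with no group at or under 3 counts, were Dsp, Dio3, Serpinb2, Rnf39, Ddx4, Lgr5, Spock3, Draxin, Ppbp, Fam78b and Prg4. Dio3, the deiodinase that inactivates thyroid hormone, was at 11, 12.7 and 4.37 CPM in KFs, 0.82, 0.698 and 1.2 CPM in KFc, 17.2, 25.1 and 17.4 CPM in TFs and 171, 159 and 158 CPM in TFc. It rose in kidney and fell in tail fibroblasts, and the transplanted groups moved towards each other without meeting (difference 6.39, SE 0.52, adjusted p = 5.78e-06). Serpinb2, plasminogen activator inhibitor 2, was at 116, 380 and 219 CPM in KFs and 7.92, 3.04 and 1.23 CPM in TFs, with both cultures at 0.964–1.16 and 0.549–1.1 CPM. It was high in KFs alone (difference 5.49, SE 0.95, adjusted p = 0.0019). Fam78b rose in kidney fibroblasts from 0.597–1.2 CPM to 5.26, 23.2 and 20.7 CPM and was at 3.64, 4.13 and 3.31 CPM in TFs against 3.11–3.53 CPM in TFc (difference 4.12, SE 0.58, adjusted p = 0.000421). In Rnf39 and Ddx4 the tail cultures were the highest group, at 7.06–7.89 and 15–19.2 CPM, and fell on transplantation (differences 5.26, SE 0.94, and 5.02, SE 0.78, or 4.32 for Ddx4 without KFs replicate 3). Rnf39 was near the level of 3 counts in kidney, at 0.0802–0.162 CPM in KFs and 0.0332–0.209 CPM in KFc. Its kidney response was 0.08 (adjusted p = 0.935), so its difference reflects the tail fall alone. Ddx4 was at 0.385–1.32 CPM in KFs and 0.166–0.373 CPM in KFc. Draxin, a Wnt antagonist and axon repellent, rose in kidney to 6.95, 5.74 and 1.2 CPM and fell in tail fibroblasts from 52.5–60.5 to 16.8–22.4 CPM (difference 4.56, SE 0.71). Prg4, the joint lubricant lubricin, rose in kidney fibroblasts from 3.18–3.8 CPM to 45, 82.4 and 4.37 CPM and was far higher in tail fibroblasts, at 1765, 1788 and 2572 CPM in TFs against 2506–2690 CPM in TFc (difference 3.97, SE 0.85). Ppbp, a platelet chemokine, and Spock3, a matrix proteoglycan, were below 5 CPM in every library (differences 4.29, SE 0.71, and 4.61, SE 1.31, the second lost when most single libraries were left out). Dsp, desmoplakin of epithelial desmosomes, was at 5.86, 3.4 and 187 CPM in KFs, 12.9–14.9 CPM in KFc, 3.21, 3.59 and 5.34 CPM in TFs and 83.6–87.7 CPM in TFc. Its difference of 6.60 (SE 1.41, adjusted p = 0.00738) rested on KFs replicate 3 and was 2.74 (SE 0.36, adjusted p = 7.91e-05) without it.

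The 12 genes with the largest negative difference by the same rule were Ccl20, Apod, Mmp13, Myo15b, Pi16, Popdc2, Aldh1a2, Igfbp5, Col2a1, Rspo2, Rgs8 and Ryr3. Apod, the lipid carrier apolipoprotein D, was at 2.18, 0.513 and 0.0802 CPM in KFs, 1.23, 1.26 and 1.76 CPM in KFc, 86.4, 123 and 135 CPM in TFs and 1.39, 1.57 and 1.14 CPM in TFc. Only TFs was high (difference -7.02, SE 0.96, adjusted p = 0.00033). Pi16, a marker of adventitial fibroblasts, rose in tail from 1.58–1.81 to 20.9–46.2 CPM and was at 3.31, 0.609 and 0.0401 CPM in KFs against 3.39–4.08 CPM in KFc (difference -5.71, SE 1.09, adjusted p = 0.00376). Aldh1a2, which makes retinoic acid, rose in tail fibroblasts from 1.49–1.62 CPM to 70.7, 49.4 and 35.2 CPM, within the range of the kidney libraries, which were at 25.7, 31.4 and 111 CPM in KFs and 77.9–84.4 CPM in KFc (difference -5.59, SE 0.68, adjusted p = 0.000132; -6.58 without KFs replicate 3). Ryr3, a calcium release channel, rose in tail to 11.1, 33.4 and 47.4 CPM from 1.25–1.84 CPM and was below 1 CPM in every kidney library (difference -5.21, SE 1.17; -7.52 without KFs replicate 3). Col2a1, the cartilage collagen, fell in kidney fibroblasts from 19.4–24.3 CPM to 0.283, 0.449 and 0.481 CPM and was at 5.83, 16.3 and 18.2 CPM in TFs against 12.8–18.7 CPM in TFc (difference -5.42, SE 0.50, adjusted p = 1.29e-05). Popdc2 fell in kidney from 1.56–2.46 CPM to at most 0.281 CPM (difference -5.60, SE 1.03; -6.78 without KFs replicate 3). Myo15b and Rgs8, both below 3 CPM in every library, rose from near 0 in tail fibroblasts (differences -6.12, SE 1.09, and -5.38, SE 1.13).

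**Figure D5:**
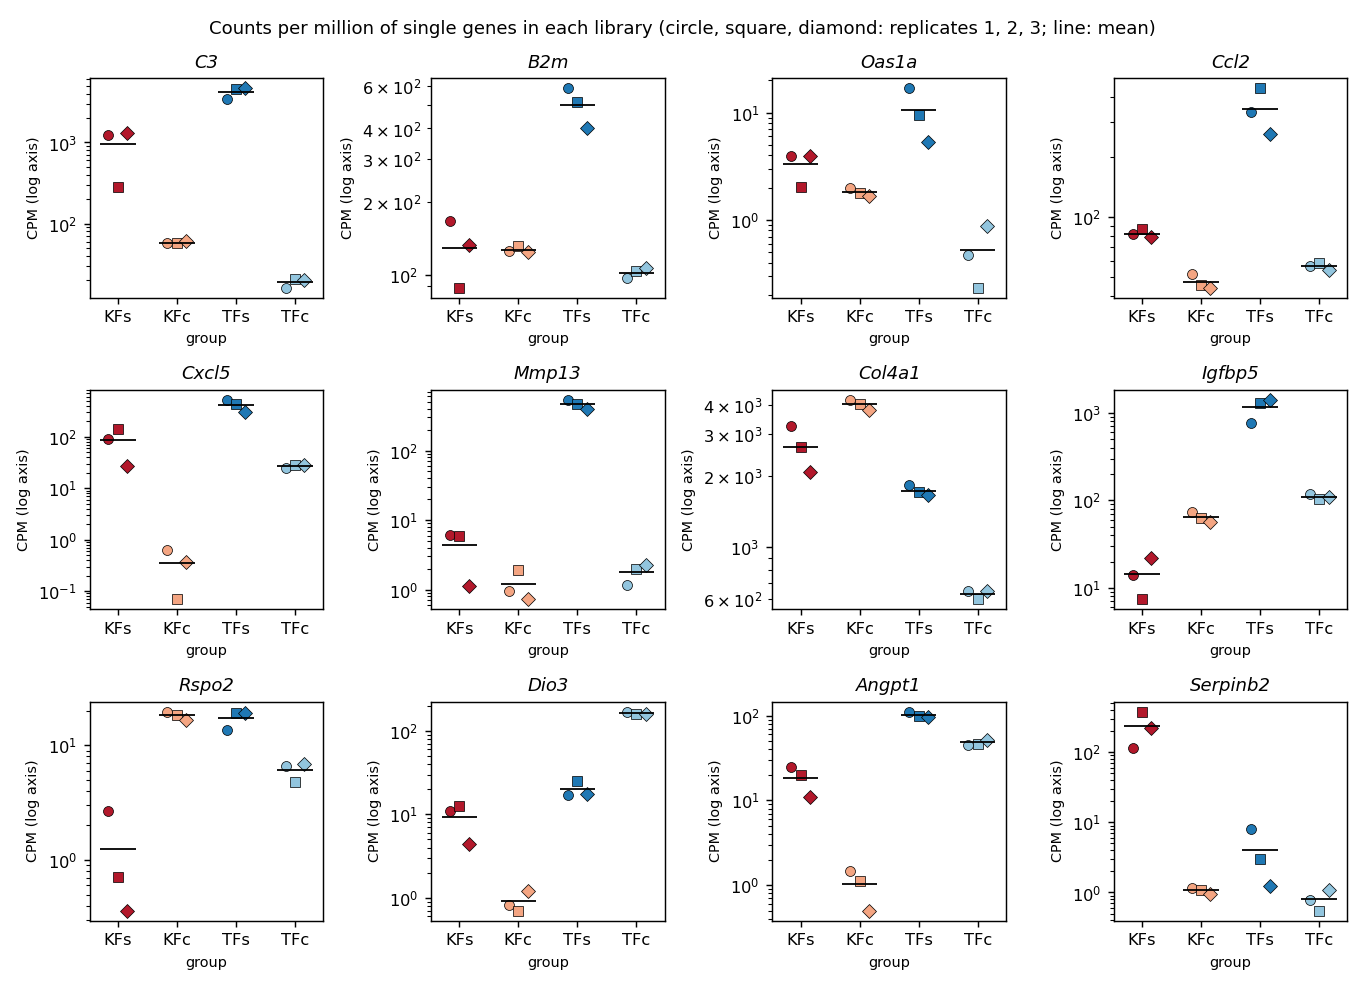
CPM, on log axes, of 12 genes in each of the 12 libraries (circle, square and diamond for replicates 1, 2 and 3, line for the mean). C3, B2m, Oas1a, Ccl2 and Mmp13 lay higher in every TFs than in every KFs library, Igfbp5 and Rspo2 fell in KFs and rose in TFs, and Dio3 rose in KFs and fell in TFs.

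In 37 genes the responses were opposed, each past the threshold with a log2 change beyond 1 and of opposite sign in the 2 organs in both fits; 18 rose in kidney and fell in tail fibroblasts, and 19 the reverse. Among the largest of the first kind were Cd300ld5, Dio3, Draxin and Sdk2, and of the second Sucnr1, Igfbp5, Rspo2, Scn4b and Kcnf1. The log2 changes are fitted values, also for genes with a group at or under 3 counts, whose number among the 37 is not given here. Against that floor Sucnr1 rose at least 1.89-fold in tail fibroblasts, a bound short of a log2 change of 1. Cd300ld5 rose at least 2.14-fold in kidney fibroblasts. Kcnf1, a modulator of potassium channels, was at 0, 0 and 0.401 CPM in KFs, 0.489–0.731 CPM in KFc, 46.9, 70.6 and 54.7 CPM in TFs and 10.7–15.3 CPM in TFc. KFs replicates 1 and 2 held no count, and the difference was -4.45 (SE 0.86, adjusted p = 0.00403) and was past the threshold without KFs replicate 3 too, where the fitted value depends on the absence of counts. Sdk2, an adhesion protein of synapses, had counts of 11, 17 and 12 in KFs, 2, 2 and 0 in KFc, 77, 114 and 138 in TFs and 366, 262 and 226 in TFc. It rose at least 4.65-fold in kidney fibroblasts and fell by 1.03 on the log2 scale in tail fibroblasts (adjusted p of the difference 0.00043). Scn4b, a subunit of sodium channels, had counts of 2, 3 and 3 in KFs, 24, 18 and 23 in KFc, 11, 4 and 14 in TFs and 1, 6 and 0 in TFc, a fall of at least 6.77-fold in kidney fibroblasts.

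A further 41 genes met the rule for the largest differences but for a group at or under 3 counts in each library, so that counts rather than fitted changes describe them. The leading ones with the higher kidney response were Cd300ld5, Phox2a, Pappa2, Sdk2 and Scrt1. Pappa2, a protease that frees IGF from its binding proteins, had counts of 24, 9 and 36 in KFs, 2, 3 and 3 in KFc, 6, 27 and 17 in TFs and 89, 56 and 48 in TFc, a rise of at least 8.54-fold in kidney fibroblasts. Cd300ld5 had counts of 9, 6 and 0 in KFs, 0, 0 and 0 in KFc, 2, 5 and 0 in TFs and 38, 56 and 34 in TFc. Phox2a and Scrt1, transcription factors of neurons, had at most 34 and 87 counts in any library, and their calls ended when most (Phox2a) or several (Scrt1) single libraries were left out. The leading ones with the lower kidney response were Sucnr1, Il23r, AI593442, Pdzk1ip1 and Cyp4a12b. Sucnr1, the succinate receptor, had 0, 0 and 0 counts in KFs against 5, 14 and 24 in KFc and 7, 2 and 2 in TFs against 0, 0 and 0 in TFc. Il23r, a subunit of the interleukin 23 receptor, had 17, 23 and 17 counts in TFs, 0, 0 and 0 in TFc, 0, 0 and 0 in KFs and 0, 3 and 2 in KFc. Its rise in tail fibroblasts was at least 7.91-fold, and both kidney groups were at or under the floor. AI593442 had 0, 0 and 0 counts in KFs against 38, 52 and 25 in KFc, a fall of at least 12-fold, and 2, 23 and 16 in TFs against 6, 5 and 3 in TFc. Pdzk1ip1, a membrane protein of the proximal tubule, had 56, 13 and 28 counts in TFs against 0, 0 and 0 in TFc, a rise of at least 14.1-fold, and 16, 10 and 43 in KFs against 60, 65 and 88 in KFc.

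Only 41 genes passed in the 18-library fit and not without KFs replicate 3, 40 of them with the higher kidney response and 1, Lpxn, with the lower. The largest were Mid1-ps1, Lctl, Irx3, Susd4 and Ifnlr1. Irx3, a homeobox factor of the nephron, was at 1.7, 1.92 and 29.4 CPM in KFs, 3.49–4.15 CPM in KFc, 3.05, 4.23 and 4.2 CPM in TFs and 14.8–17.5 CPM in TFc, and its difference went from 3.56 (SE 1.08, adjusted p = 0.0457) to 0.94 (SE 0.44, adjusted p = 0.149). Ifnlr1, a receptor chain for type III interferon, was at 0.485, 0.417 and 3.57 CPM in KFs and 0.224–0.454 CPM in KFc (difference 3.18, then 1.45). Lpxn, an adaptor at focal adhesions, fell in both organs, and its difference went from -1.43 (SE 0.44, adjusted p = 0.0495) to -1.32 (SE 0.49, adjusted p = 0.0658). The calls of Irx3 and Ifnlr1 also ended without any single KFc, TFs or TFc library, and that of Lpxn without these or KFs replicate 2. In Irx3 and Ifnlr1 KFs replicate 3 was far above replicates 1 and 2. Itga3, a laminin-binding integrin the study names, was at 12.1, 8.49 and 175 CPM in KFs, 149, 121 and 139 CPM in KFc, 5.62, 8.27 and 8.74 CPM in TFs and 47.5, 43.8 and 45.1 CPM in TFc. Its difference was 1.52 (SE 1.05, adjusted p = 0.39) with all libraries and -1.17 (SE 0.28, adjusted p = 0.0078) without KFs replicate 3, a change of sign.

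Markers of other cells that could be present differed as follows. Proximal tubule markers rose in both organs (19 of 23 in kidney and 23 in tail fibroblasts), with 3 lower and 0 higher in kidney. Their summed level was 182, 94.7 and 136 CPM in KFs, 110–118 CPM in KFc, 501, 202 and 282 CPM in TFs and 23.9–26 CPM in TFc. Of the markers the study names, Kap, Slc27a2 and Pck1 had no count in any culture and were counted in transplanted cells of both organs: Kap had counts of 414, 134 and 30 in KFs and 418, 480 and 589 in TFs, Slc27a2 363, 147 and 87 and 514, 286 and 443, and Pck1 210, 127 and 306 and 208, 320 and 340. Their rises were at least 70.3-fold, 72.3-fold and 78.5-fold in kidney and 204-fold, 175-fold and 119-fold in tail fibroblasts. With no count in the cultures of either organ, the fit gave these differences no usable standard error. Saa3, an acute phase protein, was at 165, 79.8 and 1.76 CPM in KFs and 939, 530 and 536 CPM in TFs, and its difference of -2.96 (SE 3.96) did not pass (adjusted p = 0.695). Cyp2j5, a cytochrome of the proximal tubule, with no count in TFc, did not pass either (adjusted p = 0.196), whereas Fut9, a fucosyltransferase, with counts of 141, 98 and 282 in KFs, 24, 20 and 24 in KFc, 316, 102 and 165 in TFs and 0, 0 and 0 in TFc, did (adjusted p = 0.0424), a call that ended in the fit blocked by replicate number and when any single library but KFs replicate 3 or TFs replicate 2 was left out.

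Endothelial markers gave 1 higher and 3 lower of 13, with summed levels of 117–134 CPM in KFs, 76.8–79.2 CPM in KFc, 84.4–101 CPM in TFs and 52.5–59.3 CPM in TFc. Flt1, a VEGF receptor, rose in both organs, at 63.8, 62.9 and 76.3 CPM in KFs, 28.6–35.1 CPM in KFc, 27.4, 31.9 and 17.2 CPM in TFs and 1.14–1.84 CPM in TFc (difference -2.94, SE 0.33, adjusted p = 7.6e-05). Mural cell markers gave 2 lower of 6, and their summed level went in kidney fibroblasts from 1171–1209 to 121–186 CPM and in tail fibroblasts from 128–130 to 88.9–114 CPM. Cartilage and bone markers gave 3 higher and 1 lower of 6, and in the 17-library fit 4 and 1 of 7. Sox9 and Runx2, regulators of these lineages, rose in kidney and fell in tail fibroblasts (differences 2.34, SE 0.41, and 1.47, SE 0.15). That of Sox9 was 1.67 without KFs replicate 3. The other higher gene, Acan, had counts of 2, 12 and 28 in KFs and 0, 0 and 0 in KFc. The lower gene was Col2a1, the cartilage collagen described above, which fell in kidney fibroblasts (difference -5.42). Of 18 general fibroblast markers 2 were lower in kidney, Pi16 and S100a4, and 0 higher, but in the 17-library fit 7 were higher and 2 lower. S100a4 fell from 172–173 to 1.04–4.97 CPM in kidney and from 455–462 to 90.3–104 CPM in tail fibroblasts (difference -3.36, SE 0.43). Neutrophil, lymphocyte, erythroid, podocyte and skeletal muscle markers, of which 3, 2, 5, 4 and 3 were tested, and 15 markers of the loop, distal tubule and collecting duct gave no call in the 18-library fit, and the sums of neutrophil, lymphocyte and erythroid markers were at most 20.5 CPM in any library. Of 5 adipocyte markers 1 was lower and of 2 Schwann cell and melanocyte markers 1 was higher. Of 10 epithelial genes 1 was higher and 1 lower, and in the 17-library fit 1 and 6. Their median difference was -2.75, and -5.37 in the 17-library fit. With the 8 genes at or under 3 counts set to that floor, these medians were 0.41 and -2.81. The lower gene, Cdh1, had counts of 47, 48 and 238 in KFs and 67, 38 and 96 in KFc. In TFs it had 78, 20 and 56, and in TFc 0, 0 and 1. Its call ended without KFc replicate 3 or any TFc library. Krt19, a simple epithelial keratin, rose in kidney from 4.05–7.34 to 8.62–15.7 CPM and fell in tail fibroblasts from 4.74–4.98 to 0.509–3.21 CPM (difference 2.67, SE 0.62, adjusted p = 0.0119). Aqp1, a water channel of the proximal tubule and of some vessels, rose in tail from 5.22–6.63 to 17.3–25.1 CPM and was at 6.39, 5.19 and 5.33 CPM in KFs against 7.18–9.25 CPM in KFc (difference -2.34, SE 0.48, adjusted p = 0.00591). The part of these cells in the differences above was not tested. The proximal tubule covariate is no such test, because its level largely followed the grouping into cultures (0.56–0.79) and transplanted libraries (1.98–3.91).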

How the data were processed

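RNA from sorted transplanted cells and from cultured controls was made into stranded total-RNA libraries and sequenced as 75-base single-end reads. The authors aligned the reads and estimated expression with RSEM; the deposited values are expected counts per gene, which need not be whole, in 1 table of 38924 gene identifiers. The study's methods name the genome build GRCm38, whereas the submitters' processing notes list mm9, so no coordinate was taken from the counts. RSEM divides reads shared by near-identical genes among them. Symbols came from GENCODE mouse release 21 for 37607 identifiers, and those without a symbol held 0.277% of counts. The labels do not say that replicates came from separate animals or cultures, so p-values measure only the spread between these samples, which may be technical.

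Expected counts were rounded, filtered by group with filterByExpr and scaled by TMM. All 18 libraries were fitted with 1 mean per group in edgeR 4.0.16 (R 4.3.3), and the contrast (KFs - KFc) - (TFs - TFc) was tested with the two-sided quasi-likelihood test at a Benjamini-Hochberg adjusted p of 0.05. The fit was repeated without KFs replicate 3. On simulated counts for 16265 genes, the 18-library test found 39 of 100 differences of 1 and 71 of 100 differences of 2 on the log2 scale, with 2 false calls. The simulation changed only well-counted genes and gave all libraries the same spread per gene, with none set apart like KFs replicate 3. Without that library it found 37 and 68 of 100, whereas in the data the calls went from 1835 to 3619. Its recovery and false calls thus need not hold for these data. Replicates of a group differed by more than sampling noise, with a chi-square per gene of 5.65 or more in every pair, and each was counted as a sample.

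The members of the 52 gene lists, the rules and the tests were chosen with earlier results of these data known. The text names, for either direction, 12 genes of the largest difference that passed in both fits without overlap of the pairwise ratios; up to 5 per direction of those with a group at or under 3 counts, of those with opposed responses and of those passing only with KFs replicate 3; the 2 to 4 members of each list with the smallest adjusted p in each direction, of which the text describes a part; and genes the study names. Genes outside these rules carry a remark where they appear, and some genes that met them are not reported here. Alternatives were DESeq2 1.42.0, limma 3.58.1 (voom), other scalings and filters, the replicate number as a block, single libraries left out and a covariate for proximal tubule markers.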

Additional observations from a re-analysis of the deposited data

Results flagged for a closer look

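The responses of kidney and tail fibroblasts to the same transplantation differed by the test of the difference itself in 1835 genes, which is what marks the results here for a closer look. Among the genes with the largest differences, the kidney response was the higher, on the log2 scale, for Dsp (6.60), Dio3 (6.39), Serpinb2 (5.49), Rnf39 (5.26), Ddx4 (5.02), Lgr5 (4.82), Spock3 (4.61), Draxin (4.56), Ppbp (4.29), Fam78b (4.12) and Prg4 (3.97). It was the lower for Ccl20 (-7.23), Apod (-7.02), Mmp13 (-6.17), Myo15b (-6.12), Pi16 (-5.71), Popdc2 (-5.60), Aldh1a2 (-5.59), Igfbp5 (-5.55), Col2a1 (-5.42), Rspo2 (-5.41), Rgs8 (-5.38) and Ryr3 (-5.21). No test for a single outlying library was run within the groups of 3.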

How the results depend on the processing

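The number of genes whose response differed was 1835 (828 higher and 1007 lower in kidney). It was 3231 (1647 and 1584) with limma voom and sample weights, 1094 (432 and 662) with proximal tubule markers as a covariate, 767 (280 and 487) at an adjusted p below 0.01 and 980 (408 and 572) with a log2 difference beyond 1. With no filter on low counts 550 were higher, and with the 12 kidney and tail libraries alone 409. Leaving out single libraries gave 1198 to 3619 genes in all, 453 to 1645 higher and 723 to 1974 lower, the highest each time without KFs replicate 3. The number higher also moved by more than 1.5 times without KFc replicates 1, 2 or 3 (540, 534 and 542), TFs replicates 2 or 3 (512 and 511), and TFc replicates 1, 2 or 3 (538, 466 and 453). The cause of these changes was not tested, other than fewer genes or samples where the setting removes them. The number of tail-responsive genes, 6433, was 9675 with voom, and that of kidney-responsive genes stayed within 1.5 times of 8091 in every alternative run. With scaling by library size alone 51% of the calls were higher in kidney, with DESeq2 size factors 38.2%, against 45.1%. Of 176 named genes past the threshold, 115 passed in every alternative; 6 lost the call without KFs replicate 3 and 52 with the proximal tubule covariate. The difference of Itga3, 1.52, ranged from -1.17 to 2.01 over single libraries left out, and reversed without KFs replicate 3. With the replicate number as a block 1633 genes passed (716 and 917), of which 1581 were among the 1835. Deviations from the group means correlated by -0.09 to 0.12 between libraries with 1 number. Few libraries (0 or 1 of 3) correlated best with their own number. With 3 libraries a group, and KFs replicate 3 apart from the others, such correlations cannot decide whether libraries of 1 number share a source. Added after seeing the data, fits without KFs replicate 3 gave 3168 genes with the block, 3506 with the 11 kidney and tail libraries and 4103 with DESeq2. At 3 libraries a group, the depth of 17927838 to 32245168 counts leaves genes at or under 3 counts without a measurable fold.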
